A study of Mus musculus with 69 samples.

Results

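The metallothioneins Mt1 and Mt2 and the zinc transporters Slc39a14 and Slc30a1 were followed in mouse lung after a single instillation of titanium dioxide nanoparticles. Members were chosen by gene symbol, through the RefSeq transcript that each array probe was designed against, and 4 of the 17628 genes tested belonged to this group. They were read by 6 of the 41174 probes. The animals were 69 female C57BL/6 mice with no genetic modification, 1 mouse to an array, and all groups shared the instillation under anaesthesia. NRCWE-001 was the unmodified, uncharged titanium dioxide particle and NRCWE-002 the chemically modified, positively charged one, each given once into the trachea at 18, 54 or 162 µg. Lungs were collected on day 1 or day 28. Vehicle mice received the carrier liquid alone, which the sample titles call H2O and the series design text describes as containing serum. There were 5 mice in each of the 14 groups of particle, dose and day, except for the vehicle group of day 28 with 4 mice.

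Metallothioneins are small, cysteine-rich proteins that bind zinc and copper and buffer the free metal in the cell, and they are also induced in acute inflammation and by glucocorticoids. Mt1 and Mt2 are the isoforms found in most tissues. Slc39a14 encodes ZIP14, an importer at the plasma membrane that carries zinc, iron and manganese into the cytosol and is known as an acute-phase gene of the liver. Slc30a1 encodes ZnT1, which exports zinc from the cell. When zinc in the cell rises, the zinc-finger protein MTF-1 binds metal response elements and raises transcription of Mt1, Mt2 and Slc30a1.

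Promoter sequences from RefSeq (GRCm38.p6) are shown because metal response elements are the feature through which zinc is known to reach these genes. An entry was present for 3 of the 4 genes, and Slc39a14 is named only. Each run is the 250 bases before the transcription start on the + strand, and capitals mark matches to the core of the metal response element, searched as TGCACNC or TGCGCNC on both strands. The windows are chr8:94178839-94179088 for Mt1, chr8:94172368-94172617 for Mt2 and chr1:191906531-191906780 for Slc30a1.
Mt1: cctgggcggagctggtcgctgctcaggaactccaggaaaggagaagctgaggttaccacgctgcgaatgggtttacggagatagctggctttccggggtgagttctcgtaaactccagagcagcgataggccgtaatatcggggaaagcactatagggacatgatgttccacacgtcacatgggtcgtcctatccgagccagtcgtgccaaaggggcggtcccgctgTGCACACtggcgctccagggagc
Mt2: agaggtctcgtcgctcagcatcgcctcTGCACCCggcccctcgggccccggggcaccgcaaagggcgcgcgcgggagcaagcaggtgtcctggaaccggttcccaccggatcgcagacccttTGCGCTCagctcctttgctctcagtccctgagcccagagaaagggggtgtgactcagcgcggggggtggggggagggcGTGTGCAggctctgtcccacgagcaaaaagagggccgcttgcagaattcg
Slc30a1: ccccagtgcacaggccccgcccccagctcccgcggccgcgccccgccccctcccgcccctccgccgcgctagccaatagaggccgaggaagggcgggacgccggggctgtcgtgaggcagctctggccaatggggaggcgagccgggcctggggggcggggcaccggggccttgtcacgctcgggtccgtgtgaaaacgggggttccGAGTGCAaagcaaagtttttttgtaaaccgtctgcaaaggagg

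The Mt2 window held 3 matches, which began 223, 128 and 50 bases before the start. Mt1 held 1 match, 23 bases before the start, and Slc30a1 held 1, 43 bases before it. At least 1 match occurred in 21.4% of the 32851 promoter windows of that length in the table and 3 or more in 1.26%. A core of the antioxidant response element, TGACNNNGC on either strand, was found once in Mt2 and once in Slc30a1 and in 10.2% of all windows, and it overlapped no capitalised match. These matches describe the letters of the window and were not tested for binding. Bases outside the windows, whose ends depend on the start given in RefSeq, were not searched. The counts are therefore not totals for a gene and do not rank the genes by their elements.

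Levels below are log2 ratios of lung RNA to a common mouse reference RNA, so that a value of 0 means equal signal in both, and only differences between groups compare the animals. All 6 probes were well above background on 69 of 69 arrays in both channels. The median intensity above local background in the lung channel was 4860 for Mt1 and 6334 for Mt2, 309.5 and 1310 for the probes of Slc30a1, and 98 and 36 for those of Slc39a14, which were dim. Across arrays, 61.4% to 87.8% of spots lay well above background. Markers of alveolar type 2 cells and of club cells were above the reference in the vehicle lungs of day 1, with mean log2 ratios of 4.09 to 4.33 over 6 genes and of 6.27 to 6.92 over 2 genes. Whole-lung RNA does not tell fewer cells of a type from less RNA per cell. The arrays were hybridised on 18 slides and scanned on 12 days, and several groups shared most slides.

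**Figure D1:**
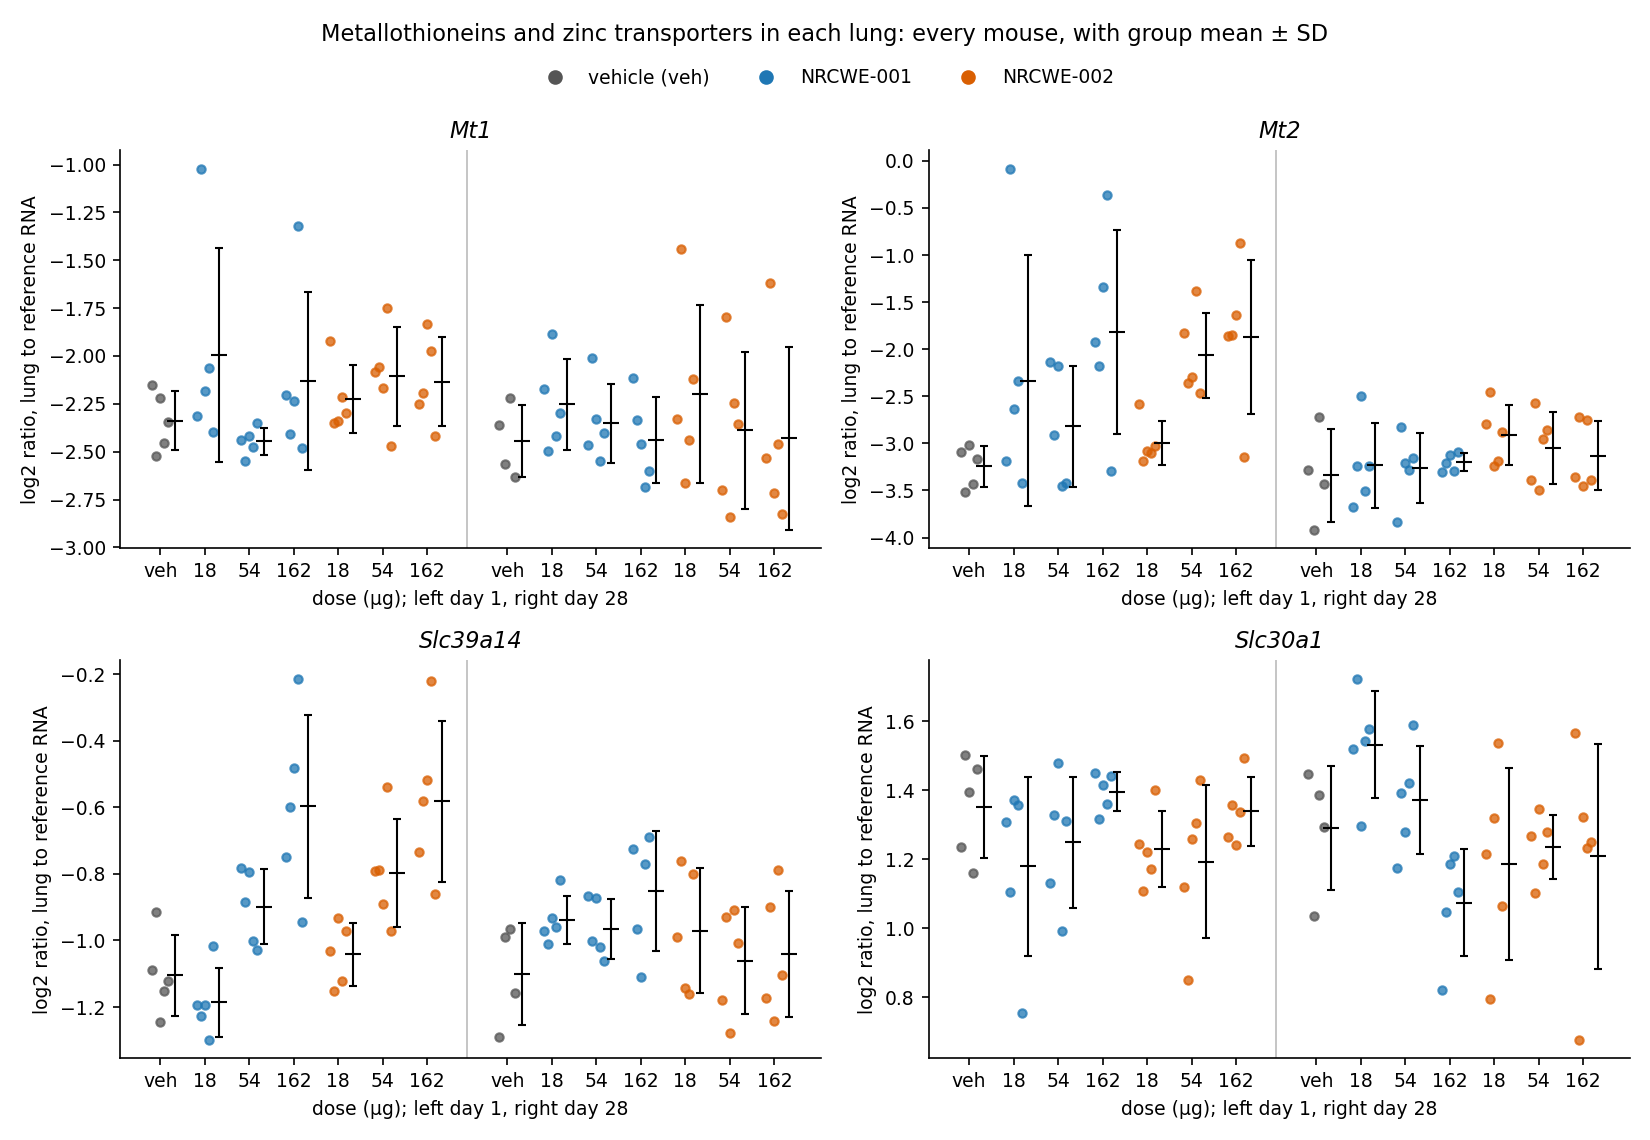
Log2 ratio of lung to reference RNA of Mt1, Mt2, Slc39a14 and Slc30a1 (y axes) in each of the 69 mice (points), by dose in µg on day 1 (left of the line) and day 28 (right), with the group mean and SD beside the points. Slc39a14 and Mt2 stand higher on day 1 at 54 and 162 µg than in most other groups, and in both 162 µg groups of day 1 a single mouse keeps Mt2 at the vehicle level (-3.29 and -3.14).

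Slc39a14, the importer gene, was the member that passed the test, and it did so for both particles at 162 µg on day 1. Vehicle lungs of day 1 read -1.25, -1.15, -1.12, -1.09 and -0.91. Lungs given 162 µg of NRCWE-001 read -0.94, -0.75, -0.60, -0.48 and -0.21, and lungs given 162 µg of NRCWE-002 read -0.86, -0.73, -0.58, -0.52 and -0.22. All 5 NRCWE-002 mice lay above every vehicle mouse, whereas in the NRCWE-001 group 4 of 5 did and the lowest mouse fell just below the highest vehicle mouse. Of all genes, 3.54% had every NRCWE-002 mouse at this dose above every vehicle mouse. The increase was 0.51 ± 0.10 (SE, log2) for NRCWE-001, a 1.42-fold change with a 95% interval of 1.23 to 1.64 and an adjusted p of 0.00668 by limma. For NRCWE-002 it was 0.52 ± 0.10, or 1.44-fold with an interval of 1.24 to 1.66 and an adjusted p of 0.00601. The test called 1 of 4 members in each comparison, where 0.579% and 0.596% of all genes were called.

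The size of the Slc39a14 increase depended on the processing more than its direction did. From the signals processed by the scanner software, which subtract the background without the offset used here, it was 1.22 for NRCWE-001 and 1.21 for NRCWE-002 on the log2 scale, and both were called. From the authors' table it was 0.57 and 0.58, also called. Within slides that held vehicle and exposed arrays, it was positive on 3 of 3 slides for NRCWE-001 (0.32 to 0.76) and on 2 of 2 for NRCWE-002 (0.42 to 0.61). Those slides did not hold replicates 4 and 5 of either group, its highest and lowest mouse, or replicate 2 of NRCWE-002. The call was lost without replicate 4 of either exposed group, the mouse with the highest value in its group, at 0.41 with an adjusted p of 0.123 for NRCWE-001 and 0.43 with 0.0555 for NRCWE-002. The probes of the gene gave 0.53 and 0.49 for NRCWE-001, of which the dimmer one, at 0.49, was not called on its own (adjusted p = 0.0744), and 0.51 and 0.53 for NRCWE-002, both called.

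Below 162 µg the Slc39a14 values lay between those of the vehicle and the highest dose or at the vehicle level. With 54 µg of NRCWE-001 the mice read -1.03, -1.001, -0.88, -0.80 and -0.78, and with 54 µg of NRCWE-002 -0.97, -0.89, -0.79, -0.79 and -0.54. Both groups overlapped the vehicle mice, and the differences of 0.21 ± 0.10 and 0.31 ± 0.10 were not called (adjusted p = 0.999 and 0.483). At 18 µg they were -0.08 and 0.06, each with an SE of 0.10. The effect of dose over the 3 doses together, tested by a moderated F, was called for Slc39a14 with either particle on day 1 (F = 12.9, adjusted p = 0.00254 and F = 10.8, adjusted p = 0.00574), where 0.698% and 0.823% of all genes were called. It was called for no other member on either day. On day 28 the Slc39a14 differences ran from 0.04 to 0.25, and the largest, with 162 µg of NRCWE-001, was 0.25 ± 0.11 with an adjusted p of 0.48, where 0.0454% of all genes were called. In the other 162 µg group of that day it was 0.00567%.

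**Figure D2:**
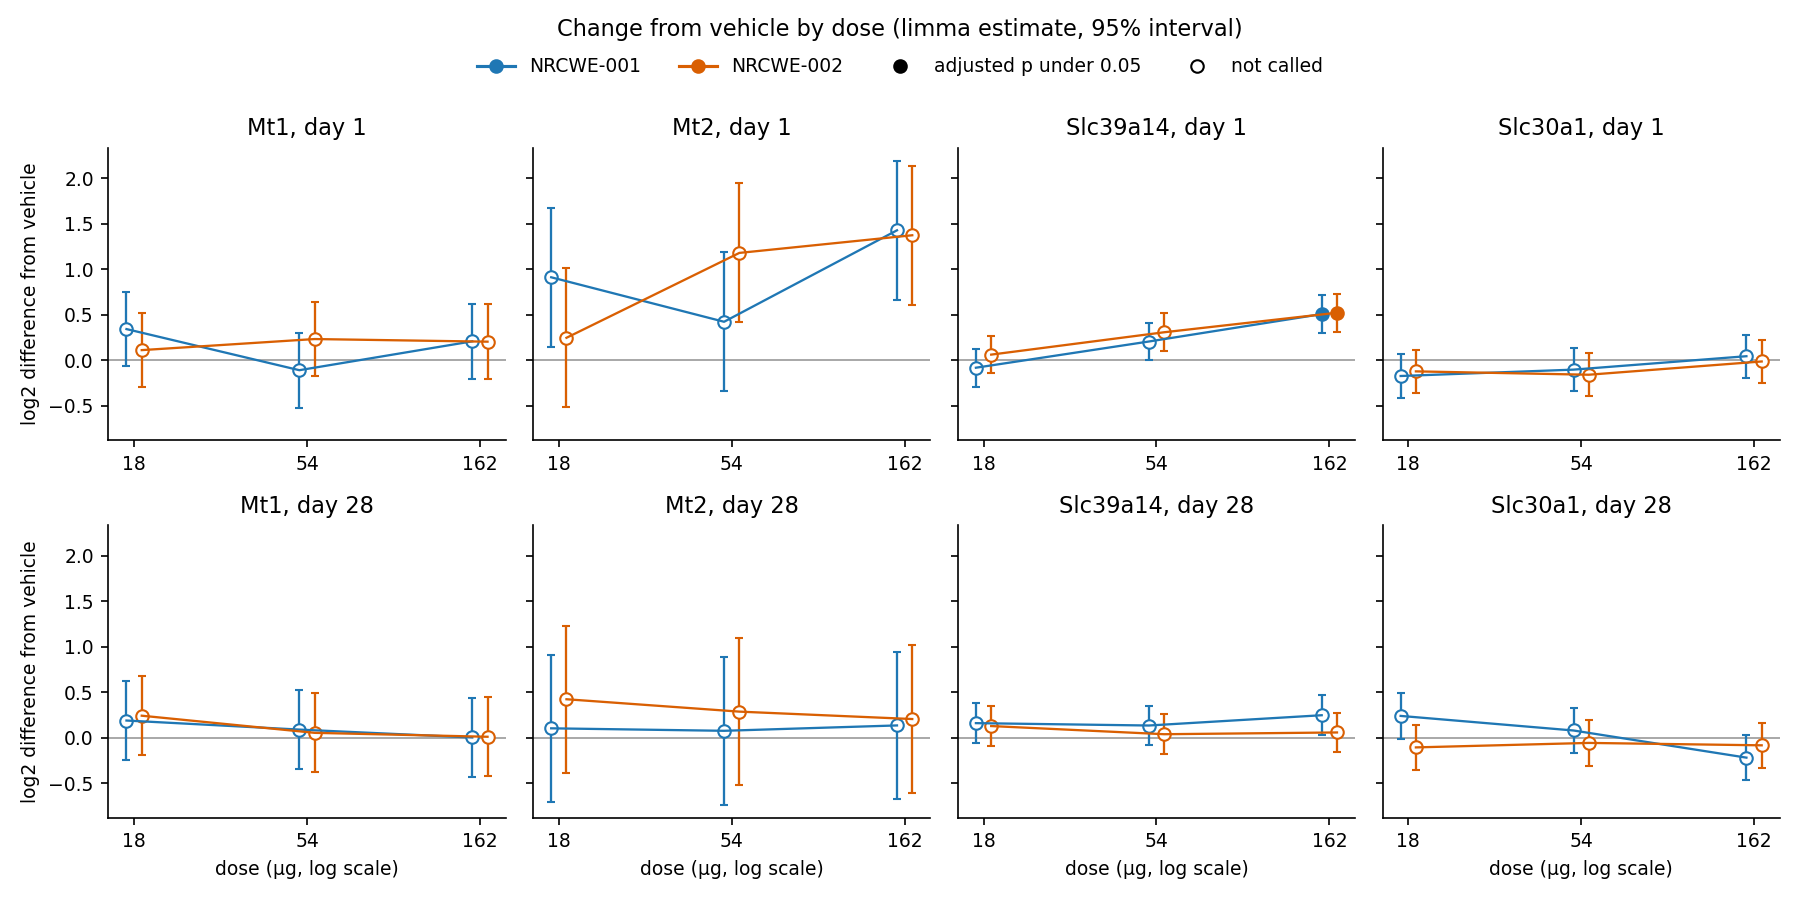
Log2 difference from the vehicle of the same day (y axis, limma estimate with its 95% interval) against dose in µg on a log scale (x axis) for each gene on day 1 (upper row) and day 28 (lower row). Filled points passed an adjusted p of 0.05, which only Slc39a14 at 162 µg on day 1 did, at 0.51 and 0.52, while the estimates of Mt2 were larger and their intervals wider.

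Mt2 had the largest differences of the 4 genes and the widest spread between mice, and it did not pass the test in the planned analysis. Vehicle lungs of day 1 read -3.52, -3.44, -3.17, -3.09 and -3.02. After 162 µg the mice read -3.29, -2.18, -1.92, -1.34 and -0.36 with NRCWE-001 and -3.14, -1.86, -1.85, -1.64 and -0.87 with NRCWE-002. In each group 4 of 5 mice lay above all vehicle mice and 1 lay within the vehicle range. That mouse also had the lowest Mt1 and the lowest Slc39a14 value of its group. The difference was 1.43 ± 0.38 (SE, log2) for NRCWE-001, which is 2.69-fold with a 95% interval of 1.58 to 4.56, and 1.37 ± 0.38 for NRCWE-002, or 2.59-fold with an interval of 1.53 to 4.39. Adjusted over all genes, p was 0.0613 and 0.0771 by limma.

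With 54 µg of NRCWE-002 all 5 mice lay above every vehicle mouse in Mt2, at -2.47, -2.36, -2.30, -1.83 and -1.38, and 1.7% of all genes did the same in that comparison. The difference was 1.18 ± 0.38 (adjusted p = 0.397), where 0.0624% of all genes were called. With 54 µg of NRCWE-001 the mice read -3.46, -3.42, -2.91, -2.18 and -2.14, and 3 of 5 exceeded the vehicle range. At 18 µg of NRCWE-001 a single mouse read -0.08, the highest Mt2 value of the whole series, beside -3.42, -3.19, -2.63 and -2.33 for the others. The difference of 0.91 ± 0.38 in that group (adjusted p = 0.913) fell to 0.35 without this mouse.

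The Mt2 call changed when slide or scan day entered the fit, and so did the number of genes called overall. At 162 µg on day 1 limma called 102 of all genes for NRCWE-001 without a block, against 772 with slide as a fixed term, 584 with slide as a random term and 754 with scan day. For NRCWE-002 it called 105 against 345, 512 and 787, and at 54 µg 11 against 242, 193 and 137. With slide as a fixed term it was called at 162 µg of NRCWE-001 (1.42, adjusted p = 0.0247) and at 54 µg of NRCWE-002 (1.61, adjusted p = 0.0315), and at 162 µg of NRCWE-002 it was 1.56 with an adjusted p of 0.054. With slide as a random term all of these were called, at 1.45, 1.49 and 1.496 with adjusted p-values of 0.00687, 0.0168 and 0.0143. With scan day as a fixed term the 162 µg differences were called at 1.46 and 1.65 (adjusted p = 0.0192 and 0.016). Within single slides the difference at 162 µg was positive on 3 of 3 slides for NRCWE-001 (1.17 to 1.68) and on 2 of 2 for NRCWE-002 (1.53 to 1.58). Replicates 4 and 5 of both groups, the highest and lowest mouse of each, were on slides without a vehicle array and did not enter these counts. The same held for replicate 2 of NRCWE-002. Leaving out replicate 5, the mouse at the vehicle level, also gave a call, at 1.79 for NRCWE-001 and at 1.69 with the other particle (adjusted p = 0.00299 and 0.0104). Leaving out other mice moved the adjusted p as high as 0.61 and 0.329.

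**Figure D3:**
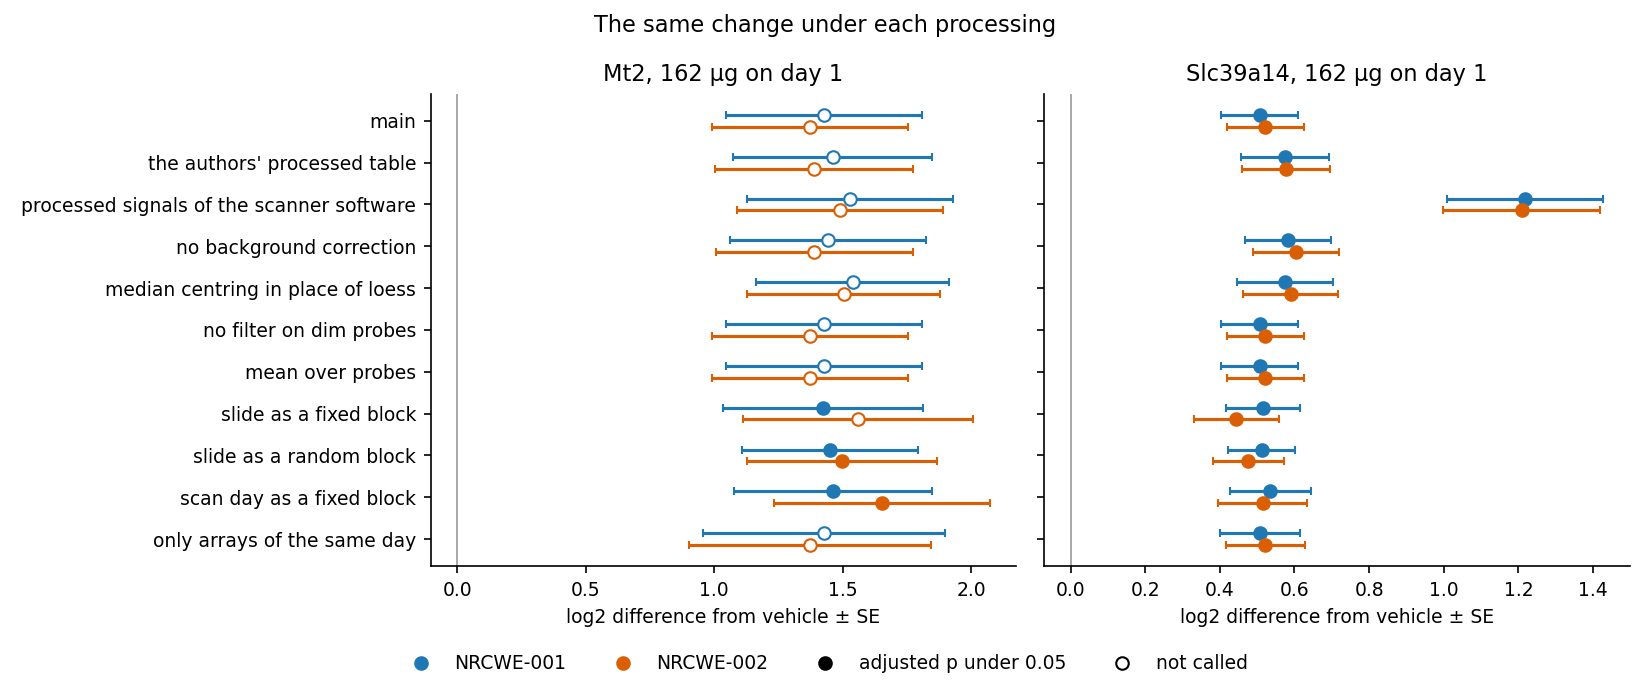
Log2 difference from vehicle with its SE (x axes) at 162 µg on day 1 for Mt2 (left) and Slc39a14 (right) under each processing (rows). All estimates lie above 0, filled points mark adjusted p-values under 0.05, and the Slc39a14 estimate from the processed scanner signals stands apart at 1.22 and 1.21.

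On day 28 Mt2 was near the vehicle level with both particles. Vehicle mice read -3.92, -3.43, -3.29 and -2.72, and mice given 162 µg read -3.30, -3.29, -3.21, -3.12 and -3.09 with NRCWE-001 and -3.45, -3.39, -3.36, -2.75 and -2.72 with NRCWE-002. Exposed and vehicle mice overlapped in both groups. The day 28 differences of Mt2 over all doses ran from 0.08 to 0.42, and none was called. The 162 µg effect on day 28 minus that on day 1 was -1.29 ± 0.56 for NRCWE-001 and -1.17 ± 0.56 for NRCWE-002 in Mt2, and -0.26 ± 0.15 and -0.46 ± 0.15 in Slc39a14. Their adjusted p-values were 1 and 0.708 for Mt2 and 1 and 0.515 for Slc39a14, so a difference between the days was not shown. For either particle limma called 0 of all 17628 genes in this comparison of days, and at an unadjusted p under 0.05 766 and 1181.

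Mt1, the partner isoform, showed no difference that passed the test at any dose or day. Vehicle lungs of day 1 read -2.52, -2.45, -2.35, -2.22 and -2.15. Mice given 162 µg read -2.48, -2.41, -2.23, -2.21 and -1.32 with NRCWE-001 and -2.42, -2.25, -2.19, -1.97 and -1.83 with NRCWE-002. Exposed and vehicle mice overlapped, with 1 and 2 of 5 exposed mice above all vehicle mice. The differences were 0.21 and 0.20 with an SE of 0.20 and 95% intervals of -0.20 to 0.62 and -0.20 to 0.61. Without the mouse at -1.32 the NRCWE-001 difference was 0.0066. On slides that held a vehicle array it was positive on 1 of 3 for NRCWE-001 and on 2 of 2 for NRCWE-002. Over all doses and both days the Mt1 differences ran from -0.11 to 0.34.

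The Mt2 and Mt1 values of the same mice were also set against each other, as a description with no test, because the pair was chosen after their differences were seen. The Mt2 value minus the Mt1 value was -0.91 ± 0.09 (SD, n = 5) in vehicle lungs of day 1, 0.31 ± 0.71 after 162 µg of NRCWE-001, 0.26 ± 0.65 after 162 µg of NRCWE-002 and 0.04 ± 0.27 after 54 µg of NRCWE-002. It was above every vehicle mouse in 4 of 5, 5 of 5 and 5 of 5 mice. The group means stood 1.22, 1.17 and 0.95 above that of vehicle. With 18 and 54 µg of NRCWE-001 and 18 µg of NRCWE-002, 3 of 5 mice each were above every vehicle mouse. Those group means stood 0.57, 0.53 and 0.14 above vehicle. The vehicle mice of day 1 lay close together, against an SD of 0.35 on day 28. How often other pairs of genes separate in this way was not computed. Within slides the 162 µg difference between the isoforms was positive on 3 of 3 slides (1.22 to 1.69) and 2 of 2 (1.02 to 1.37). Replicates 4 and 5 of both groups and replicate 2 of NRCWE-002 were on slides without a vehicle array and did not enter these counts. On day 28 the group means differed from vehicle by -0.09 to 0.23. Each isoform was read by 1 probe, and cross-hybridisation between these related transcripts was not tested.

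Slc30a1, the exporter gene, showed no difference from vehicle that passed the test on day 1. Vehicle mice read 1.16, 1.24, 1.40, 1.46 and 1.501. Mice given 162 µg read 1.32, 1.36, 1.42, 1.44 and 1.45 with NRCWE-001 and 1.24, 1.26, 1.34, 1.36 and 1.49 with NRCWE-002. All exposed values lay within the vehicle range, and the differences were 0.05 and -0.01 with an SE of 0.12 and 95% intervals of -0.19 to 0.28 and -0.25 to 0.22.

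On day 28 the Slc30a1 level in NRCWE-001 lungs was highest at the lowest dose. Vehicle mice of day 28 read 1.04, 1.29, 1.39 and 1.45. With 18 µg of NRCWE-001 the values were 1.30, 1.52, 1.54, 1.58 and 1.72, with 54 µg 1.18, 1.28, 1.39, 1.42 and 1.59, and with 162 µg 0.82, 1.05, 1.105, 1.19 and 1.21. At 18 µg 4 of 5 mice lay above all vehicle mice, and at 162 µg 1 of 5 lay below them. The differences were 0.24, 0.08 and -0.22 (SE 0.13 each, adjusted p = 0.641, 1 and 0.661). The F-test over the 3 doses gave F = 5.22 with an adjusted p of 0.161, where 0.477% of all genes were called. These were 84 genes without a block, against 349 with slide as a fixed term, 506 with slide as a random term and 310 with scan day. Slc30a1 was among them with slide as a fixed term (F = 12.8, adjusted p = 0.00197), with slide as a random term (F = 11.3, adjusted p = 0.0018) and with scan day (F = 13.4, adjusted p = 0.00114). The Slc30a1 probes differed at 162 µg, with -0.04 for the dimmer and -0.39 for the brighter, and gave 0.25 and 0.24 at 18 µg.

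The charged particle was compared with the unmodified one at matched doses, in 24 pairs over the 4 genes, 3 doses and 2 days, and none was called. Of all genes, 0.13% were called between the particles at 54 µg on day 1, 0.119% at 18 µg and 0.0284% at 54 µg on day 28, and 0% in the other 3 comparisons. On day 1 no slide held 162 µg mice of both particles, and on day 28 only slide 13 held 18 µg mice of both. Particle and slide could therefore not be fully told apart in these comparisons. At 162 µg on day 1 NRCWE-002 minus NRCWE-001 was 0.02 for Slc39a14 (95% interval -0.19 to 0.22), -0.05 for Mt2 (-0.82 to 0.71), -0.0036 for Mt1 (-0.41 to 0.41) and -0.06 for Slc30a1 (-0.29 to 0.18). The interval was widest for Mt2, which leaves room for a difference in either direction that is larger than the Slc39a14 increase under the same processing (0.51 and 0.52). From the processed scanner signals that increase was 1.22 and 1.21. The extremes over all pairs were both in Mt2 on day 1, -0.66 at 18 µg (interval -1.43 to 0.10) and 0.76 at 54 µg (-0.01 to 1.52). The pair with the smallest p was Slc30a1 at 18 µg on day 28, where the charged particle was lower by 0.35 (interval -0.58 to -0.11). Its p of 0.00484 became 0.116 over the 24 pairs and 0.303 over all genes, and it was called with slide as a random term (-0.39, adjusted p = 0.0491), with scan day (-0.44, adjusted p = 0.0193), from the processed scanner signals (-0.61, adjusted p = 0.0457) and with median centring (-0.60, adjusted p = 0.0449). Those settings called 41, 26, 24 and 36 of all genes in this comparison, against 21 without them. Averaged over doses, the difference between the particles ran from -0.12 to 0.20 over the 4 genes and 2 days, and none was called, where 0.125% of all genes were called on day 1 and 4.75% on day 28. With median centring in place of loess, which called 4513 genes in the day 28 comparison against 837, Slc30a1 (-0.33) and Mt1 (-0.34) were called. The same comparison called 4 genes with slide as a fixed term, 19 with slide as a random term and 5 with scan day. No member was among them.

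Ordered by their means, the 14 groups spanned 1.52 in Mt2, from -3.34 in day 28 vehicle to -1.82 at 162 µg of NRCWE-001 on day 1. They spanned 0.60 in Slc39a14, 0.46 in Slc30a1 and 0.45 in Mt1. The ratios of the dim Slc39a14 probes are compressed, so its span does not compare directly with those of the brighter genes. The order of Slc39a14 began with NRCWE-002 and NRCWE-001 at 162 µg on day 1, at -0.58 and -0.60, followed by NRCWE-002 at 54 µg on day 1 at -0.80. The step down to this last group, 0.20, was the only one between neighbours in any of the 4 orders that exceeded the pooled SD of the gene (0.16 for Slc39a14). In Mt2, Mt1 and Slc30a1, whose pooled SDs were 0.62, 0.33 and 0.19, no neighbours differed by more than the spread between mice.

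Within groups, Mt1, Mt2 and Slc39a14 varied together from mouse to mouse. After the group means were removed, Pearson's r over the 69 mice was 0.746 between Mt1 and Mt2 (rho = 0.717), 0.494 between Mt2 and Slc39a14 (rho = 0.487) and 0.461 between Mt1 and Slc39a14 (rho = 0.425). Adjusted over the 6 pairs by a permutation test with 1e+05 resamples, p was 6e-05, 6e-05 and 0.00012 for r and 3e-05, 3e-05 and 0.000705 for rho. The adjusted p of 6e-05 for Mt1 with Mt2 rests on a raw p of 1e-05, the smallest these resamples can give. With slide means also removed r was 0.862, 0.541 and 0.375, and without the 2 mice farthest from the median of the first gene of each pair it was 0.700, 0.533 and 0.514. These values share an array and its normalisation. The permutation test treated the values left after the means were removed as independent. It made no allowance for the means fitted, so its p-values can be too small, most of all with slide means removed.

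Slc30a1 ran the other way. Its r was -0.429 with Mt1 (rho = -0.392) and -0.375 with Slc39a14 (rho = -0.416), with adjusted permutation p-values of 0.000585 and 0.00188 for r and 0.00118 and 0.000705 for rho. Without the 2 farthest mice r was -0.352 and -0.408, and with slide means removed -0.393 and -0.475. With Mt2 it was -0.0766 (rho = -0.144, permutation p = 0.531 and 0.236), and this became -0.439 (adjusted permutation p = 0.000135) once slide means were removed. That p made no allowance for the group and slide means fitted and can be too small.

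**Figure D4:**
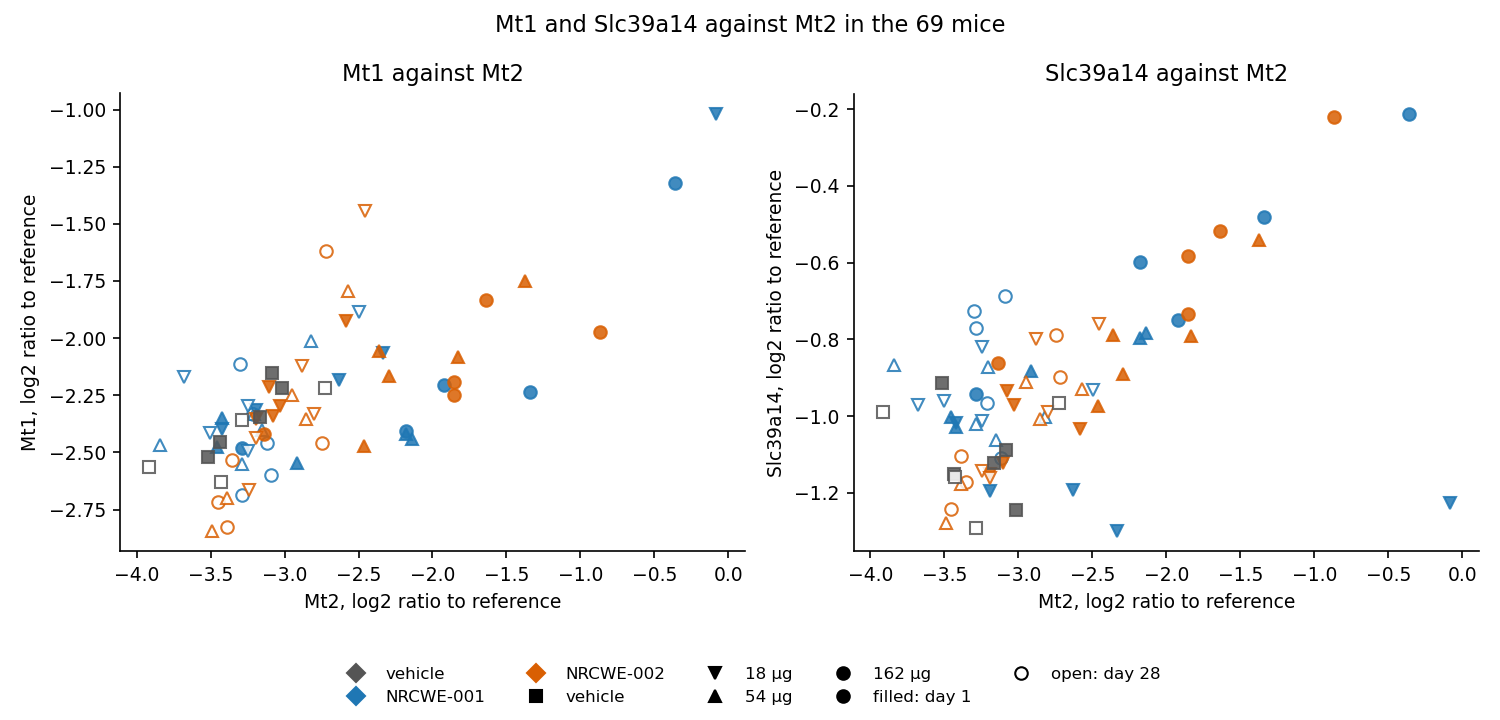
Log2 ratio to reference of Mt1 (left) and Slc39a14 (right) against that of Mt2 (x axes) in the 69 mice, coloured by particle, shaped by dose and filled for day 1. Both rise with Mt2, and the mouse with the highest Mt2 value (-0.08, 18 µg of NRCWE-001, day 1) has the highest Mt1 value (-1.02) but a Slc39a14 value of -1.23, among the vehicle mice.

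The mouse with the highest Mt2 and Mt1 values had Slc39a14 at -1.23, within the vehicle range. In contrast, the mice highest in Mt2 within the 162 µg groups of day 1, at -0.36 and -0.87, were also highest in Slc39a14, at -0.21 and -0.22. By Pearson's r over all 69 arrays, group differences included and the 4 members left out, the genes most like Slc39a14 were Tnfrsf9 (0.83), Sod2 (0.816) and Syt12 (0.815), and among those most like Mt2 were Il1r2 (0.844) and Sprr1a (0.815). For Mt1 they were Nrtn (0.753), Thop1 (0.741) and Gm6498 (0.741), and for Slc30a1 Ptprg (0.782), Sema6d (0.761) and Hecw2 (0.748). Spearman's rho was lower for each of these genes, from 0.485 for Thop1 to 0.801 for Tnfrsf9, and was 0.536 for Il1r2. These coefficients describe likeness across arrays that share groups and slides.

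No other gene of zinc handling passed the test in any of the 12 comparisons of a dose with vehicle or the 4 F-tests. The share of all genes called was 0% to 0.596% in these comparisons and 0% to 0.823% in the F-tests. At such shares lists of this size would often hold no called gene. All 13 other zinc importers of the ZIP family were measured, with a median difference at 162 µg on day 1 of 0.14 for NRCWE-001 and 0.11 for NRCWE-002, where the median over all genes was 0.01 for both. The importer with the smallest p, named after its values were seen, was Slc39a1 (ZIP1), at 0.45 ± 0.13 with NRCWE-002 (adjusted p = 0.0898) and 0.27 ± 0.13 with NRCWE-001 (adjusted p = 0.651). Of 9 other exporters of the ZnT family 8 were measured, with medians of 0.04 and 0.03. Mtf1, the metal-sensing transcription factor, was at -0.07 and -0.05. Mt3 and Mt4, metallothioneins known from brain and squamous epithelium, were at 0.13 and 0.83 with NRCWE-001 and at 0.01 and 0.02 with NRCWE-002. Mt4 had an SE of 0.54 and lay near background, with its probes well above it on 61 and 8 of 69 arrays. Some transporters counted as measured were also near background. Well above it were Slc30a3 on 7 arrays, each Slc30a10 probe on 8, Slc39a12 on 5 and Slc39a5 on 27, and such dim probes give compressed ratios.

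**Figure D5:**
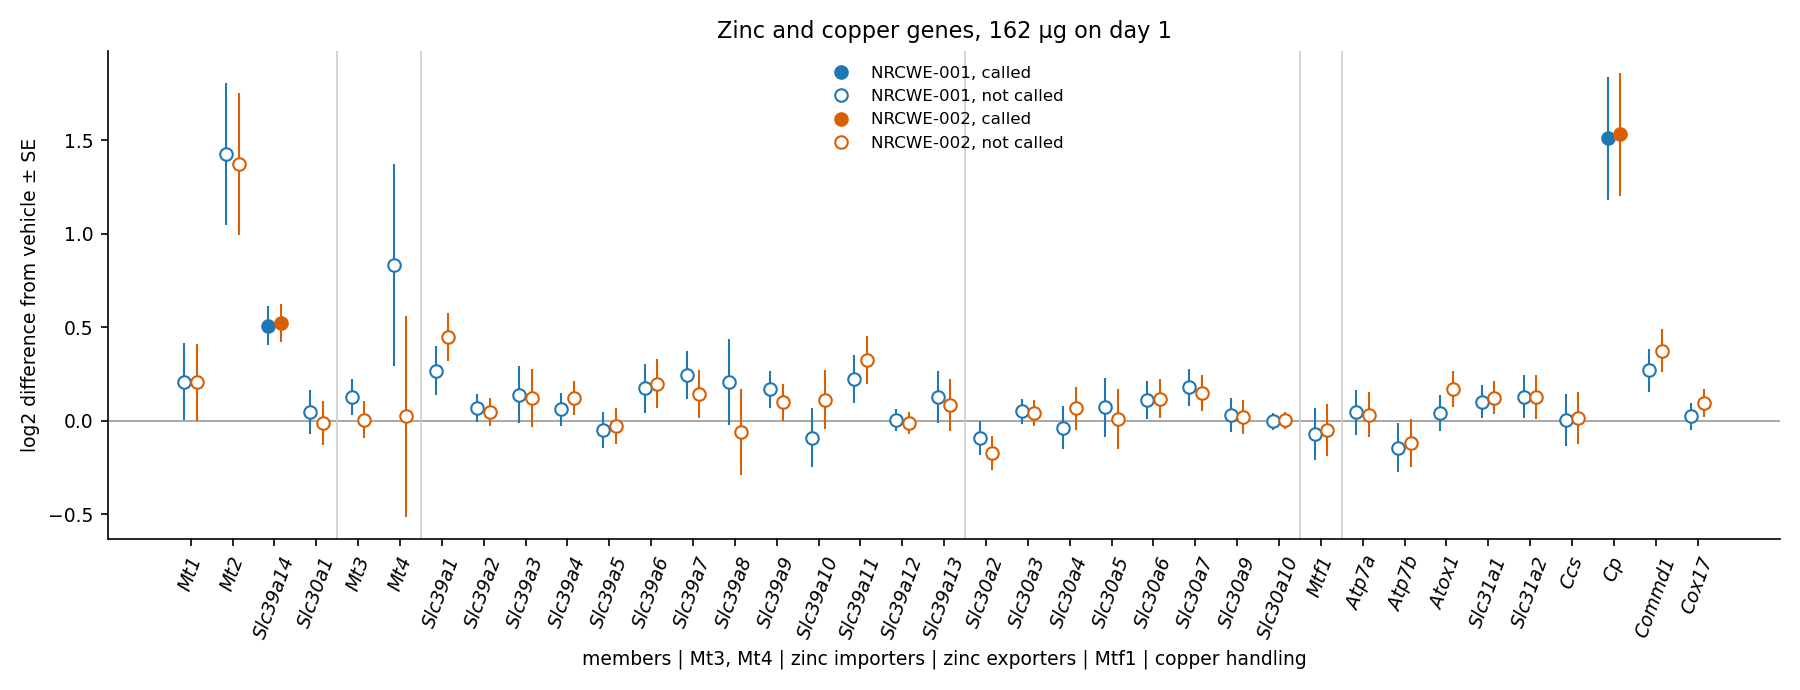
Log2 difference from vehicle with its SE (y axis) at 162 µg on day 1 for the 4 members, other metallothioneins, zinc importers, zinc exporters, Mtf1 and genes of copper handling (x axis), with called genes filled. Slc39a14 (0.51 and 0.52) and Cp (1.51 and 1.53) are the called genes, and most transporters lie close to 0, some of them read by probes near background.

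Among 9 genes of copper handling, Cp, which encodes the copper-carrying ferroxidase ceruloplasmin, was called at 162 µg of both particles and at 54 µg of NRCWE-002 on day 1, with increases of 1.51, 1.53 and 1.68 (SE 0.33 each, adjusted p = 0.0131, 0.011 and 0.0111). No other gene of that list was called. Genes of other pathways known to act on metallothioneins or ZIP14 were taken as lists. Of 13 measured genes of IL-6 family signalling and STAT3 targets, 3 were called at 162 µg of NRCWE-001 on day 1, all higher. These were the feedback inhibitor Socs3 (0.69), the receptor gene Osmr (0.39) and the cytokine gene Osm (0.25). With NRCWE-002 1 was called, Socs3 (0.61), also higher. The list medians were 0.38 and 0.46. Of 8 Nrf2 antioxidant targets, Hmox1, which encodes heme oxygenase, was called with 162 µg of NRCWE-001 (0.92) and 54 µg of NRCWE-002 (0.79). The list median at 162 µg was 0.25 for both particles.

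Of 12 measured genes of the glucocorticoid response, 1 was called at 162 µg on day 1, Nfkbia (0.70 with NRCWE-002), which encodes the NF-κB inhibitor IκBα. The list median was 0.05 for NRCWE-001, with 8 of 12 genes positive, and 0.42 for NRCWE-002, with 11 of 12. With 18 µg of NRCWE-001 on day 1, the group that held the mouse highest in Mt2, none of the list was called, all 12 were positive and the median was 0.67, beside differences of 0.91 in Mt2 and 0.34 in Mt1. Without that mouse the differences were 0.35 in Mt2 and 0.10 in Mt1, and the list was not recomputed without it. Per1 and Tsc22d3 were called with 18 µg of NRCWE-001 on day 28, at 1.25 and 1.08, where 0.193% of all genes were called. Of the list, 3 genes, Glul first (adjusted p = 0.0124), passed the F-test of NRCWE-001 on day 28. Per1 also passed that of NRCWE-001 on day 1 (adjusted p = 0.00955). In the 18 µg group of day 28 all 12 genes were again positive, with a median of 0.49 (0.01 and -0.01 over all genes in the groups of day 1 and day 28), whereas Mt1 differed from vehicle by 0.19 and Mt2 by 0.11, neither of them called. All 5 cardiac muscle markers were positive in both 18 µg groups too, with medians of 0.43 on day 1 and 1.17 on day 28. The part of this list in the metallothionein values was not tested.

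Some markers of other cell types also changed in the groups in which Slc39a14 rose. All 6 measured neutrophil markers had positive differences at 162 µg on day 1 with both particles, with medians of 0.67 (NRCWE-001) and 0.52 (NRCWE-002). Of these markers 2 were called, Csf3r (0.80) and Cxcr2 (0.69), both with NRCWE-001. Their mean log2 ratio per mouse was 1.63 to 2.13 in vehicle lungs and 1.84 to 3.17 and 1.94 to 2.71 in the exposed lungs. Of 6 measured macrophage markers 1 was called at this dose, Siglecf, which decreased by 0.92 with NRCWE-001, and the list medians were -0.21 and 0.03. Of 4 measured markers of alveolar type 1 cells, Pdpn rose by 0.68 and 0.58, whereas the other 3 were negative with both particles and the list medians were -0.10 and -0.08. Both measured club cell markers were negative, with medians of -0.41 and -0.52, and neither was called. All 5 cardiac muscle markers were positive, with medians of 0.50 and 1.03, and none was called. They varied between mice, with mean log2 ratios of 0.55 to 3.57 in vehicle lungs of day 1, 0.30 to 4.00 with 162 µg of NRCWE-001 and 0.98 to 2.90 with NRCWE-002. The part of these cells in the differences of the 4 genes was not tested.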

How the data were processed

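RNA of 1 lung per array (Cy5) had been hybridised against Universal Mouse Reference RNA (Cy3), with no dye swaps, so dye bias in a ratio's size stays but is shared by all groups. The deposited intensity files, written by Agilent Feature Extraction 11.0.1.1 when the authors scanned the arrays, hold unnormalised spot and local background intensity. The authors' deposited table holds log2 ratios of lung to reference, normalised by LOWESS within each array, and its column medians were -0.0586 to -0.00264. It correlated at 0.987 to 0.995 with the log2 ratios computed here, which settled its direction, and served as an alternative.

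In limma 3.58.1 (R 4.3.3), background was corrected by normexp (offset 50), with 0 to 87 spots per array kept out of that fit because their local background was more than 10 median absolute deviations off the array median (a step not planned). Arrays were normalised by loess. Control spots and spots marked as outliers were left out, and 0 spots were saturated. Probes carried transcript accessions, which were matched without versions to RefSeq symbols (GRCm38.p6, names only, since the array annotation follows mm9): 27479 of 41174 probes (66.7%) matched. Probes well above background in the lung channel on at least 4 arrays were kept (36452), and a gene's value was the median over its probes. 11356 of 17628 genes had 1 probe.

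Groups came from the labels. 1 limma fit held 14 group means and no covariate, because the study's methods name none. Each contrast's p-values were corrected over all genes (Benjamini-Hochberg), and adjusted p under 0.05 was called. Tests were 2-sided except the F-test. The script was tested on simulated data. The number of arrays limits the precision. Labels do not say whether mice shared a cage or instillation day.

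The members and lists were chosen with earlier results of these data known. Named genes were the 4 members, up to 4 called genes per list, and the 3 genes most like each member, of which 1 is not reported here. Further marker lists covered alveolar type 1 and 2, club, ciliated and endothelial cells, fibroblasts, T and B cells, cardiac muscle and adipocytes. Alternatives were the authors' table, processed scanner signals, no background correction, median centring, no dim filter, mean over probes, slide or scan day as a block, arrays of 1 day only, ordinary F and leaving out each array. Single probes and the Mt2-minus-Mt1 values, given with no test, were added after seeing the data.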

Additional observations from a re-analysis of the deposited data

Results flagged for a closer look

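Among the 56 sets formed by 4 genes and 14 groups, 3 held a mouse far from the others of its group by Dixon's test at the 95% level, which chance alone gives in about 1 of 20 sets. For Mt1, a mouse given 162 µg of NRCWE-001 read -1.32 on day 1, with the next at -2.21, and a mouse given 18 µg of NRCWE-001 read -1.02 on day 1, with the next at -2.06. For Mt2, a mouse given 18 µg of NRCWE-002 read -2.58 on day 1, with the next at -3.03.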

How the results depend on the processing

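Apart from the values below, 881 of 958 results recomputed under other settings and 1189 of 1252 recomputed without 1 array kept their direction and their side of the threshold (for values with no test, moved by less than 1 SD). Most changes of sign were in differences close to 0 that were not called in the analysis reported above. The cause of the changes was not tested. The number of arrays limits precision, and the dim Slc39a14 probes limit the size of its change. By replicate number, no paired analysis was possible because the labels number every sample on its own, and slide was used as a block instead. The ordinary F called the same members as the moderated F.

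From the authors' table the sign turned for Mt1 at 162 µg on day 28 (-0.024 with NRCWE-001, -0.036 with NRCWE-002) and for the mean particle difference of Mt2 on day 1 (-0.022) and Mt1 on day 28 (-0.012). From the processed scanner signals it turned for Slc39a14 at 18 µg of NRCWE-001 on day 1 (0.14), Mt1 at 162 µg on day 28 (-0.0165 and -0.023), and the mean particle difference of Mt1 (-0.016) and Mt2 (-0.041) on day 1 and of Mt1 (-0.0395) and Slc39a14 (0.023) on day 28. Without background correction that of Mt1 on day 28 was -0.0012.

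With median centring in place of loess, NRCWE-001 at 54 µg on day 1 gave 0.086 for Mt1 and 0.073 for Slc30a1. NRCWE-002 on day 1 gave -0.082 for Mt1 at 18 µg and 0.071 for Slc30a1 at 162 µg, and on day 28 -0.021 for Mt1 at 54 µg and, at 162 µg, -0.23 for Mt1 and -0.051 for Mt2. The mean particle differences were -0.11 for Mt1 and -0.13 for Mt2 on day 1, and -0.34 for Mt1 (called, adjusted p = 0.0492), -0.33 for Slc30a1 (called, adjusted p = 0.00378) and -0.18 for Mt2 on day 28. Vehicle on day 28 minus day 1 was 0.039 for Slc30a1. The F of Mt2 for NRCWE-002 on day 1 was 8.37 and called.

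With slide as a fixed block, NRCWE-002 gave 0.019 for Slc30a1 at 18 µg on day 1 and, on day 28, -0.096 for Mt1 and 0.011 for Slc30a1 at 54 µg, and -0.15 for Mt1 and -0.095 for Mt2 at 162 µg. Mt2 at 54 µg of NRCWE-001 on day 28 was -0.0034. The mean particle differences were 0.035 for Slc30a1 on day 1, and -0.13 for Mt1 and -0.0315 for Mt2 on day 28. Vehicle on day 28 minus day 1 was 0.091 for Mt2. Newly called were Mt2 on day 1 at 162 µg of NRCWE-001 (1.42) and 54 µg of NRCWE-002 (1.61), the F of Mt2 for NRCWE-002 on day 1 (6.64) and the F of Slc30a1 for NRCWE-001 on day 28 (12.8).

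With slide as a random block, day 28 gave -0.014 for Mt2 at 54 µg of NRCWE-001, -0.0265 for Mt1 at 162 µg of NRCWE-001, and -0.0385 and -0.096 for Mt1 at 54 and 162 µg of NRCWE-002. The mean particle differences were 0.01 for Slc30a1 on day 1 and -0.049 for Mt1 on day 28, and vehicle on day 28 minus day 1 was 0.11 for Mt2. Newly called were Mt2 at 162 µg on day 1 (1.45 and 1.496) and at 54 µg of NRCWE-002 (1.49), its F on day 1 (6.23 with NRCWE-001, 8.38 with NRCWE-002) and the F of Slc30a1 for NRCWE-001 on day 28 (11.3).

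With scan day as a block, NRCWE-002 gave 0.032 for Slc30a1 at 18 µg on day 1 and, on day 28, -0.095 for Mt1 at 54 µg, -0.14 for Mt1 and -0.054 for Mt2 at 162 µg. The mean particle differences were 0.024 for Slc30a1 on day 1, and -0.19 for Mt1 and -0.13 for Mt2 on day 28. Vehicle on day 28 minus day 1 was 0.22 for Mt2. Newly called were Mt2 at 162 µg on day 1 (1.46 and 1.65), its F for NRCWE-002 (7.00) and the F of Slc30a1 for NRCWE-001 on day 28 (13.4).

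The particle difference of Slc30a1 at 18 µg on day 28 was called with slide as a random block (-0.39), scan day (-0.44), processed scanner signals (-0.61) and median centring (-0.60). By single probes, the dimmer Slc39a14 probe was not called for NRCWE-001 at 162 µg on day 1 (0.49) or by F on day 1 (7.03 for NRCWE-001 and 7.15 for NRCWE-002). The dimmer Slc30a1 probe gave 0.14 at 162 µg on day 1 and 0.047 at 54 µg on day 28 for NRCWE-002, and the brighter one -0.0075 at 162 µg on day 1 and -0.0091 at 54 µg on day 28 for NRCWE-001. The correlation of Mt2 with Slc30a1 was called with slide means removed (-0.439), by a permutation p that made no allowance for the means fitted.

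Leaving out 1 array at a time, the Slc39a14 increase at 162 µg on day 1 ran from 0.41 to 0.59 for NRCWE-001 and from 0.43 to 0.59 for NRCWE-002, each called in 9 of 10 fits, and its F for NRCWE-002 from 7.79 to 12.6, called in 19 of 20. The Mt2 difference ran from 1.06 to 1.79 and from 1.12 to 1.69, each called in 1 of 10, and its F on day 1 from 3.39 to 8.11 for NRCWE-001 (called in 2 of 20) and from 4.97 to 8.51 for NRCWE-002 (1 of 20). The rise of Mt2 minus Mt1 at 162 µg, which was given no test, ran from 1.06 to 1.499 and from 0.96 to 1.41. None of the following was called. At 162 µg Slc30a1 ran from -0.0027 to 0.083 for NRCWE-001 and from -0.060 to 0.025 for NRCWE-002 on day 1. On day 28 NRCWE-001 gave, for Mt2, -0.088 to 0.31 at 18 µg, -0.11 to 0.28 at 54 µg and -0.056 to 0.34 at 162 µg, for Mt1 -0.076 to 0.080 at 162 µg, and for Slc30a1 -0.0033 to 0.13 at 54 µg. NRCWE-002 gave, for Mt1, -0.092 to 0.17 at 54 µg and -0.19 to 0.11 at 162 µg, for Slc39a14 -0.023 to 0.095 at 54 µg and -0.0035 to 0.11 at 162 µg, and for Slc30a1 -0.17 to 0.052 at 162 µg. The 162 µg effect of NRCWE-002 on day 28 minus day 1 was -0.16 to 0.064 for Slc30a1. Vehicle on day 28 minus day 1 was -0.30 to 0.098 for Mt2, -0.11 to 0.024 for Slc30a1 and -0.042 to 0.067 for Slc39a14. The mean particle differences were -0.11 to 0.20 for Mt2 and -0.056 to 0.0075 for Slc30a1 on day 1, and -0.059 to 0.047 for Mt1 on day 28.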
